A study of Homo sapiens with 24 samples.

Results

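The canonical histone genes are the clustered genes for the linker histone H1 and the core histones H2A, H2B, H3 and H4. They were taken as the protein-coding genes whose current symbol begins H1-1 to H1-6, H2AC, H2BC, H3C or H4C, and 66 such genes were found among the 58721 rows of the count tables (6 of H1, 15 of H2A, 19 of H2B, 11 of H3 and 15 of H4). The rule then kept the 32 genes with at least 10 counts in at least 3 of the 24 libraries (3 of H1, 5 of H2A, 13 of H2B, 4 of H3 and 7 of H4). The members were thus chosen by their counts, so their levels are described here and not tested against other genes.

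Canonical histone genes supply the proteins that wrap newly copied DNA, and most of their transcription takes place while DNA is replicated. Their typical mRNA has no intron and ends shortly after a conserved stem-loop in place of a poly(A) tail, with the stem-loop bound by SLBP. Several of these genes can also give a longer transcript that runs past the stem-loop and is polyadenylated, a form described in cells that have left the cell cycle. MYBL2 and FOXM1 are transcription factors that act on cell cycle genes, which is the question behind the comparisons here.

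All libraries came from A549, an established human lung adenocarcinoma cell line. In the single-knockdown experiment, cells received 25 nM siRNA against MYBL2 (siMYBL2, n = 4), against FOXM1 (siFOXM1, n = 4) or a control siRNA (siControl, n = 4), and in the double-knockdown experiment both siRNAs together (siBoth, n = 3) or a control (siControl_Both, n = 3). In the third experiment cells received FDI6, a small molecule described as an inhibitor of FOXM1 binding to DNA, at 20 µM for 24 h (FDI6, n = 3), or were its controls (control_FDI6, n = 3), which the study names as DMSO-treated although the labels do not. RNA was captured by its poly(A) tail, a step that bears on every value below, since a transcript without a tail is recovered poorly.

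Total gene counts ranged from 16487394 to 30140550 read pairs per library, and the 32 members held 0.0110% to 0.0156% of each total. Pairs not assigned because they matched several places made up 2.29% to 4.14%, and pairs that overlapped more than 1 gene 7.88% to 11.2%. Both kinds can take reads from near-identical histone genes. The share of pairs not aligned was 7.68% to 10.9% in the double-knockdown experiment and 1.73% to 3.03% in the others. Levels are given as CPM, counts scaled to the library's total after a TMM factor that adjusts for composition. Of 6 markers of other cell types, CD3E, a T cell marker, was at 0 in every library, PTPRC, a leukocyte marker, reached at most 0.232 CPM, HBB, an erythroid marker, at most 0.0805 CPM and PDGFRB, a stromal marker, at most 0.465 CPM. PECAM1, an endothelial marker, reached 2.81 CPM, and COL1A1, a fibroblast collagen, lay between 4.91 and 58.8 CPM. Fewer cells of one kind and less RNA per cell cannot be told apart in such bulk samples, and this holds also for fewer cells in the phase when histone genes are active.

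The labels were checked with the targeted genes. MYBL2 stood at 147, 157, 178 and 133 CPM in siControl and at 5.18, 8.74, 7.02 and 4.60 CPM in siMYBL2, a log2 fold change of -4.58 ± 0.20 (SE). FOXM1 stood at 128, 130, 139 and 108 CPM in siControl and at 12.8, 13.2, 12.3 and 10.3 CPM in siFOXM1, a log2 fold change of -3.38 ± 0.11. In siBoth, MYBL2 changed by -4.35 ± 0.18 and FOXM1 by -3.37 ± 0.15 on the log2 scale. Both targeted genes fell in their own knockdowns with no overlap between groups. FOXM1 also fell in siMYBL2 (-0.73 ± 0.14), and with FDI6 MYBL2 had -0.51 and FOXM1 -0.37, below 1.5-fold. The adjusted p-values of these changes, from the edgeR quasi-likelihood test with Benjamini-Hochberg adjustment over all genes tested, were 1.5e-05 for MYBL2 in siMYBL2 and 0.00754 for FOXM1 in siMYBL2.

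Among the 32 members, 19 had at least 10 counts in all 24 libraries, 4 had them in 13 to 23 libraries and 9 in 3 to 12. The 34 genes that were not kept included 6 with 0 counts in every library, and their highest single count was 15. Just inside the threshold, H4C1, H2BC7 and H3C13 had a third-highest count of 11, and just outside it H2AC12, H3C8 and H4C2 had one of 9. Of the members, 24 lie on chromosome 6, in the large histone cluster, 7 on chromosome 1 and 1 on chromosome 12. In the annotation the canonical transcript of each of the 32 has a single exon.

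What set the members apart from one another was the annotated end of the gene. In 17 members the exons stop 44 to 78 bases after the stop codon, the short end typical of a stem-loop mRNA, and in 15 they run on for 432 to 4594 bases, named extended here (over 200 bases). Of the 49 family genes with a short end, 32 were not kept by the count rule, against 2 of the 17 with an extended end. Of the 15 extended members, 14 had at least 10 counts in all 24 libraries, against 5 of the 17 short members. Exon lengths were 397 to 858 bases at 52.1% to 64.4% GC in short members and 861 to 5002 bases at 40.0% to 52.4% GC in extended ones. Median exon length over the members was 822.5 bases and median GC content 52.5%, against 4609 bases and 48.2% over 17827 genes. Length, base composition and ends thus moved together, and their separate parts in the levels were not tested.

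The stem-loop is the feature that the family shares in sequence. A 16-base stem-loop was found within 200 bases after the stop codon in 62 of the 66 family genes and in 31 of the 32 members, H3C6 being the member without a match. The most frequent form, held by 17 members, is the one in H1-3. The windows below, read from hg38, run 5′ to 3′ on the gene's strand with the stem-loop in capitals, and are shown because they mark where a typical histone mRNA ends. The first 4 are short genes, whose annotated exon stops 4 or 5 bases after the capitals, and the next 4 are extended genes, whose exon continues.
H1-2: caaaaGGCTCTTTTCAGAGCCaccactgat
H1-3: taaacGGCTCTTTTCAGAGCCacccacagg
H1-4: ccaaaGGCTCTTTTCAGAGCCacccaccgc
H2AC20: ccaaaGGCTCTTTTTAGAGCCacccaagtt
H2AC6: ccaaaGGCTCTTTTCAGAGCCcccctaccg
H2BC4: ccaaaGGCTCTTTTAAGAGCCacccagata
H2BC21: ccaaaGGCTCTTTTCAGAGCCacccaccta
H3C10: ccaaaGGCTCTTTTCAGAGCCacccacatg

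These windows lie at chr6:26055735-26055764 (H1-2, minus strand), chr6:26234208-26234237 (H1-3, minus), chr6:26157090-26157119 (H1-4, plus) and chr1:149887386-149887415 (H2AC20, plus). Those of the extended genes lie at chr6:26124664-26124693 (H2AC6, plus), chr6:26123463-26123492 (H2BC4, minus), chr1:149886179-149886208 (H2BC21, minus) and chr6:27810511-27810540 (H3C10, plus). All fall in the 3′ untranslated region, and in the short genes the last bases run past the annotated transcript. The annotated exons go on beyond the capitals for 1128 bases in H2AC6, 2426 in H2BC4, 1729 in H2BC21 and 769 in H3C10. H2AC20 carries a form of the stem-loop that no other member had, whereas the extended genes H2AC6, H2BC21 and H3C10 have the same capitals as the short genes H1-2, H1-3 and H1-4.

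The promoters were examined because 29 of the 32 members had an entry in the RefSeq promoter table (GRCh38.p14, 250 bases before to 50 after the start). CCAAT, the letters of the box bound by NF-Y, was found on either strand in 25 of the 29 (86.2%), against 35.7% of all 27305 promoters of that length. TATAAA was found in 18 (62.1%, against 11.95%), the octamer TTTGCAT in 12 (41.4%, against 4.51%) and TTTGAA, letters of the CHR element of late cell cycle genes, in 7 (24.1%, against 15.4%). The octamer was held by 9 of 13 H2B and 3 of 5 H2A members and by no promoter of H1, H3 or H4. Since H2A and H2B genes often lie head to head, a pair of members can share the same window. A window of the octamer in the member with the highest level and 2 windows of the linker histone genes described below are shown, with the motif in capitals.
H2BC12 octamer: tcttcaccttaTTTGCATgagaggtcctat
H1-3 CCAAT: tggagcaaggaaCCAATcatcactcagcgt
H1-4 CCAAT: ctggacagcgcaCCAATcacggcgcagctc

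The windows lie at chr6:27146885-27146914 (H2BC12, minus strand), chr6:26235025-26235054 (H1-3, minus) and chr6:26156263-26156292 (H1-4, plus), upstream of each start. A match gives letters only and is no evidence of binding. The 4 members called in siMYBL2 below, H1-3, H1-4, H2AC20 and H2BC4, each hold CCAAT and TATAAA when either strand is searched. In H2BC4 the letters TATAAA were not found on the gene's own strand. Both motifs were common among the members' promoters (CCAAT in 25 of 29, TATAAA in 18 of 29), so holding them does not set these 4 genes apart.

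Levels differed widely between members. A few genes held most of the signal: H2BC12, a core histone H2B gene, averaged 25.9 CPM over the 24 libraries (19.9% of the members' sum), H2AC6, an H2A gene, 21.2 CPM (16.3%), H1-2, a linker histone gene, 13.3 CPM (10.2%) and H2BC5, an H2B gene, with a 9.21% share. These 4 genes together made up 55.7% of the sum. Per kilobase of exon, the order was H2BC12 (52.3 CPM per kb), H1-2 (18.1), H4C9, an H4 gene (16.1), H2BC5 (13.9), H2AC6 (12.7) and H2AC11, an H2A gene (7.36). This order is over all 24 libraries and changed between groups. H2BC5 (15.3) was above H4C9 (13.7) in siControl, where H4C3 (11.98) was above H2AC11 (7.68), and H4C9 (22.0) was above H1-2 (21.5) in siControl_Both. H2BC12 came first in each of the 7 groups. A short end did not exclude a high level, since H2BC12 and H1-2 are both short and led this order.

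The way reads were counted limits some of these levels. All 150-base windows of H4C14 and 52.9% of those of H2AC13 also occur in the transcript of another family gene, so pairs from them could be dropped, and 5.62% do in H3C13. The other 29 members had no such window within the family. On the opposite strand, 14.9% of the H2BC4 exon overlaps HFE, 9.8% of the H2BC18 exon overlaps FCGR1A and 28.2% of the H2BC6 exon overlaps a gene without a symbol. On the same strand, H2AC17 covers 40.3% of H3C12 and MIR4666A 1.6% of H2BC26. The strand setting of the counting is not given in the sources used here, so reads of such partners may not have been told apart.

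**Figure D1:**
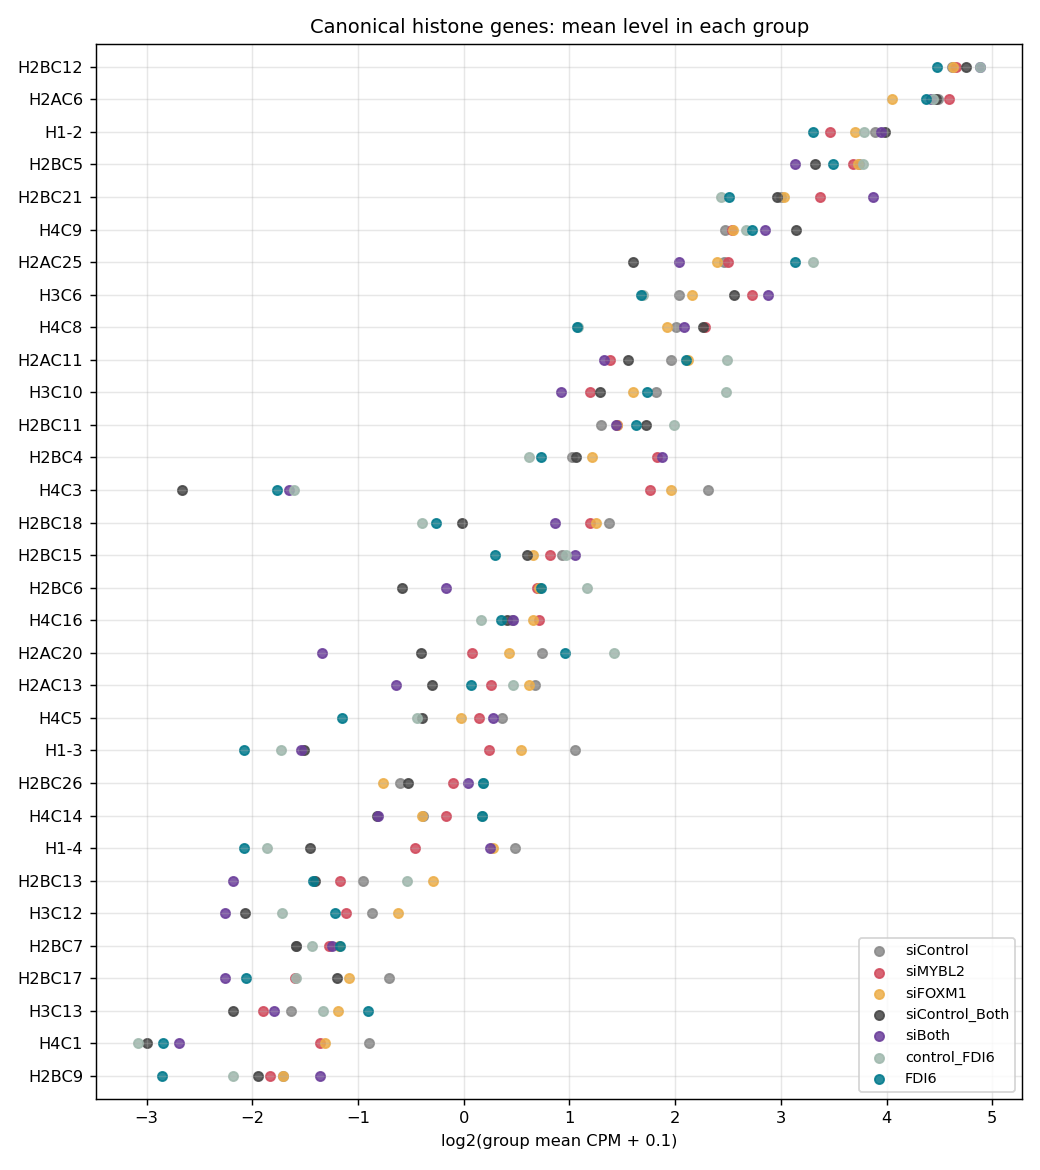
Each row is 1 of the 32 members, and each point is the mean of 1 of the 7 groups, on a log2 axis of CPM plus 0.1. H2BC12 and H2AC6 lie at the high end in every group, and H4C3 and H1-3 show a wide gap between the groups of the single-knockdown experiment and the rest.

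The summed level of the members was 135 ± 15.2 CPM (SD, n = 4) in siMYBL2, 127 ± 10.1 in siFOXM1 and 136 ± 18.7 in siControl, 134 ± 9.56 in siBoth and 124 ± 6.27 in siControl_Both (n = 3 each), and 113 ± 3.07 with FDI6 against 136 ± 7.34 in control_FDI6 (n = 3 each). The ranges were 122 to 148 CPM in siMYBL2, 112 to 133 in siFOXM1 and 113 to 158 in siControl, and 123 to 140 in siBoth and 118 to 131 in siControl_Both. The siRNA groups and their controls overlapped. Between same-numbered libraries, which pair the siRNA samples, the sum was lower in 4 of 4 pairs in siFOXM1 (by 0.935 to 27.8 CPM in size, mean difference -9.21), higher in 3 of 3 in siBoth (mean difference 10.2 CPM) and lower in 2 of 4 in siMYBL2. The FDI6 libraries (110 to 117) all lay below their controls (131 to 144). A member was called where the edgeR quasi-likelihood test gave a Benjamini-Hochberg adjusted p under 0.05, over all genes tested, and the fold change exceeded 1.5. Fold changes are in log2 units with their standard error (SE), treated over control.

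Knockdown of MYBL2 lowered a pair of linker histone genes and 1 H2A gene and raised 1 H2B gene. Of 27 members tested, 3 were called lower, beside 3.52% of all 16065 genes tested, and 1 was called higher, beside 4.38%. The members' median was -0.05 (0.00 with upper-quartile scaling) and that of all genes 0.01. Their values ran from -1.05 to 0.84.

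H1-3 and H1-4 encode linker histones, which bind the DNA between nucleosomes. H1-3 stood at 2.11, 1.86, 1.85 and 2.07 CPM in siControl and at 1.12, 1.15, 1.2 and 0.856 CPM in siMYBL2. Every knockdown library lay below every control library, and H1-3 fell by 0.86 ± 0.17 on the log2 scale (adjusted p = 0.00982, edgeR). H1-4 stood at 1.28, 1.44, 1.08 and 1.39 CPM in siControl and at 0.963, 0.542, 0.502 and 0.499 CPM in siMYBL2. Here too the groups did not overlap, although the first knockdown library was near the lowest control, and H1-4 fell by 1.05 ± 0.26 (adjusted p = 0.0232, edgeR). H1-2, the third H1 member and the most abundant, stood at 14.5, 15.3, 11.7 and 17.4 CPM against 11.2, 11.4, 8.61 and 12.6 CPM. One siMYBL2 library was above the lowest control and the log2 fold change was -0.42 ± 0.15 (adjusted p = 0.083, edgeR), which does not pass. Summed over the 3 H1 members, the level was 12.7 ± 1.62 CPM in siMYBL2 (10.3 to 14.0) and 18 ± 2.60 CPM in siControl (14.6 to 20.9), and these ranges did not overlap.

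H2AC20 is an H2A gene on chromosome 1. It stood at 1.45, 1.36, 2.02 and 1.44 CPM in siControl and at 0.763, 1.02, 1.04 and 0.999 CPM in siMYBL2. The groups did not overlap, and H2AC20 fell by 0.71 ± 0.21 (adjusted p = 0.0422, edgeR). These calls rest on few libraries to different degrees: H1-3 was called in all 8 fits that left out 1 library, H1-4 lost its call in 5 of 8 (without siMYBL2 replicate 2, 3 or 4 or siControl replicate 1 or 2, with adjusted p up to 0.0644) and H2AC20 in 7 of 8 (all but the fit without siControl replicate 4, with adjusted p up to 0.111).

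H2BC4, an H2B gene with an extended end, moved the other way. It stood at 2.32, 2.08, 1.29 and 2.03 CPM in siControl and at 4.33, 3.39, 2.89 and 3.18 CPM in siMYBL2. All knockdown libraries lay above all controls, and H2BC4 rose by 0.84 ± 0.21 (adjusted p = 0.0245, edgeR), a call lost without siMYBL2 replicate 1 or siControl replicate 2. Part of its exon overlaps HFE on the opposite strand, and the share of reads from HFE was not tested.

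H4C3, H2AC11 and H3C10 came close to these calls. H4C3, an H4 gene, stood at 4.35, 4.58, 5.96 and 4.52 CPM in siControl and at 3.61, 3.32, 3.24 and 2.96 CPM in siMYBL2. Its groups did not overlap and its change of -0.56 ± 0.15 had an adjusted p of 0.0281 (edgeR), but the fold of 1.48 was under 1.5. H2AC11 changed by -0.59 ± 0.18 (adjusted p = 0.052) and H3C10, an H3 gene, by -0.64 ± 0.20 (adjusted p = 0.0588), both short of the threshold, while among the positive values H3C6, an H3 gene, had 0.71 ± 0.29 (adjusted p = 0.122) and H2BC26, an H2B gene, 0.57 ± 0.28 (adjusted p = 0.191), all from edgeR.

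The same-numbered libraries of the knockdown and control groups deviated together, so a fit with the replicate number as a block was also made. With the replicate block, 5 members were called lower in siMYBL2 (H1-3, H1-4, H2AC20, H2AC11 with adjusted p = 0.00545 and H3C10 with adjusted p = 0.00238) and 2 higher (H2BC4 and H3C6, the latter with adjusted p = 0.000922), beside 12.4% of all genes called in either direction (7.9% without the block). By direction the block called 4.71% of all genes lower and 7.68% higher.

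The values in siMYBL2 split along the annotated ends of the genes. Of 12 short members tested, 10 had a negative and 2 a positive value, with a median of -0.43, and 3 were called lower. Of 15 extended members, 5 had a negative and 10 a positive value, with a median of 0.15, and 1 was called higher. The summed level of the short members was 54.2 ± 5.45 CPM in siMYBL2 (47.6 to 59.5) and 63.3 ± 7.16 CPM in siControl (56.0 to 73.1), and that of the extended members was 80.7 ± 10.3 and 72.8 ± 12 CPM. Both sums overlapped between groups. Within pairs of the same number the short sum was lower in 4 of 4 (mean difference -9.07 CPM) and the extended sum higher in 3 of 4 (mean difference 7.86 CPM). Ends and histone class were tied in part, since all 3 H1 members are short and 8 of the 13 H2B members are extended. By class the medians in siMYBL2 were -0.86 for H1, -0.44 for H2A, 0.02 for H2B, -0.30 for H3 and 0.16 for H4. The split by ends is given as a description, and the parts of end and class were not tested.

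**Figure D2:**
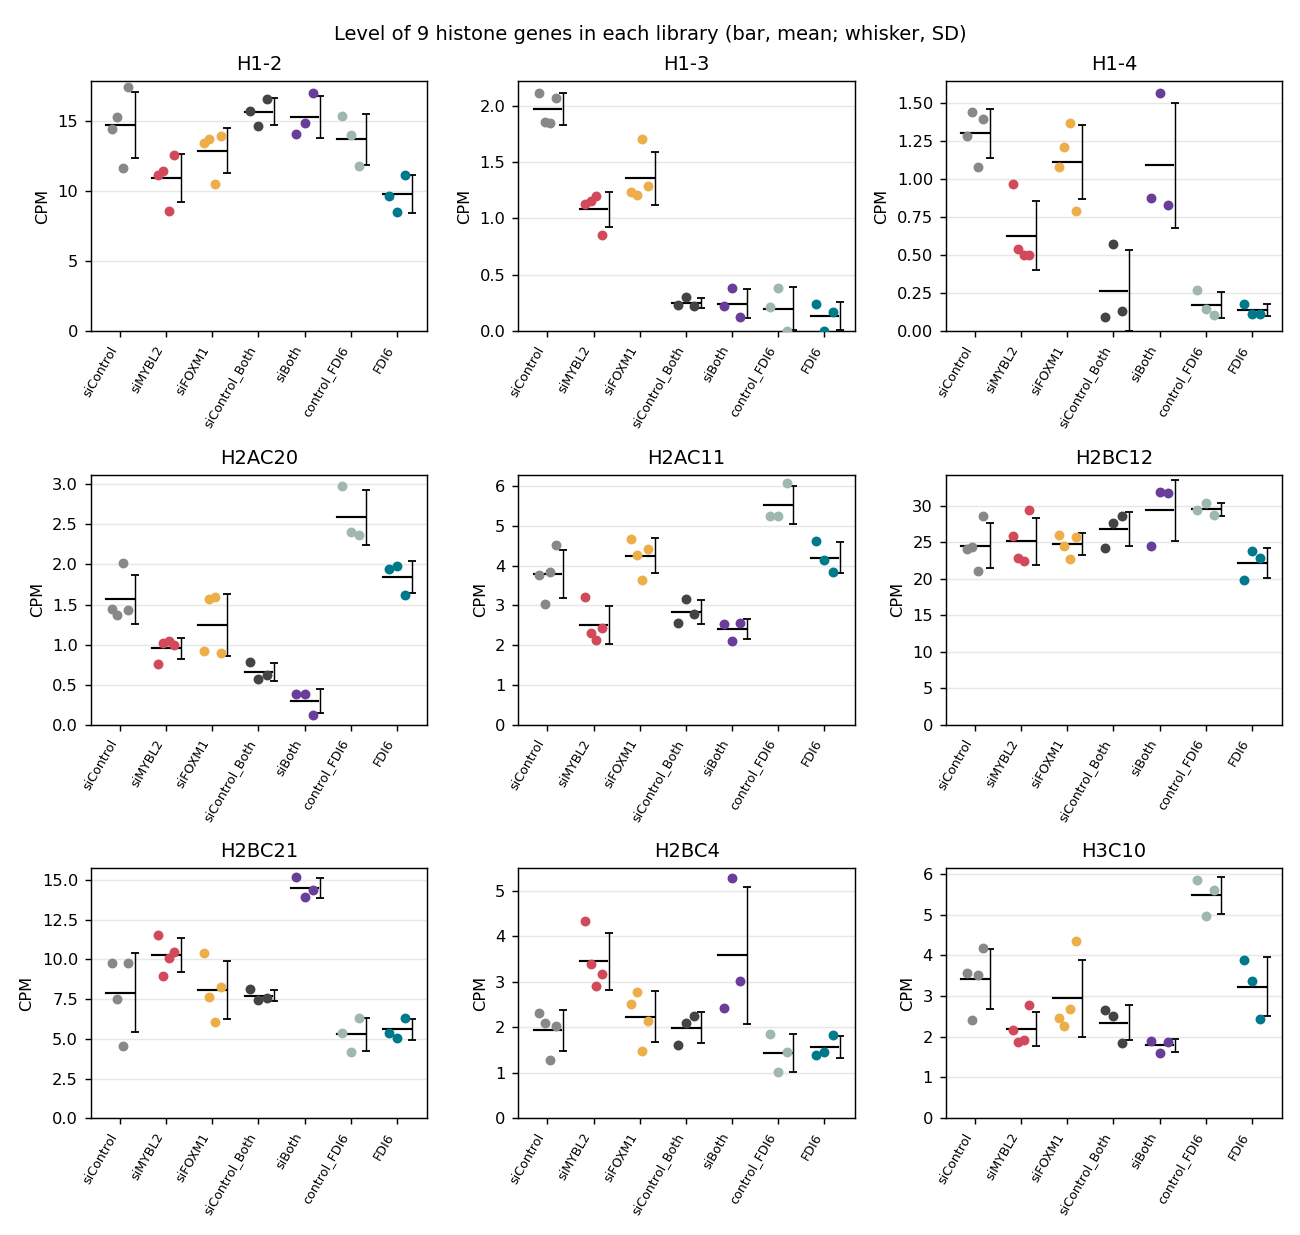
CPM of 9 members in each of the 24 libraries, with a panel per gene, a bar at the group mean and a whisker of 1 SD (n = 4 in the single-knockdown groups and 3 in the others), on linear axes from 0. H1-3, H1-4 and H2AC20 lie lower in siMYBL2 than in siControl, H2BC4 lies higher there, H2BC21 is highest in siBoth, and H3C10 is lower with FDI6 than in its control.

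Knockdown of FOXM1 gave no called member. Of 28 members tested, 0 were called in either direction by edgeR and 0 by DESeq2, beside 0.667% of the 15892 genes tested in edgeR. The members' median was -0.07 and that of all genes 0.00, with values from -0.54 to 0.78. H1-3 stood at 1.23, 1.21, 1.71 and 1.28 CPM in siFOXM1, below all siControl libraries, with a log2 fold change of -0.54 ± 0.17 and an adjusted p of 0.187 (edgeR). The H1-3 value was negative in both single knockdowns, which share the siControl libraries. H2AC6 had -0.44 ± 0.16 (adjusted p = 0.27) and H4C3 -0.36 ± 0.19 (adjusted p = 0.499), while H2BC13, an H2B gene, had 0.78 ± 0.41 (adjusted p = 0.489), H2BC4 0.20 ± 0.24 (adjusted p = 0.831) and H2AC11 0.16 ± 0.15 (adjusted p = 0.751), none of which passed in edgeR. The median was -0.19 over 13 short and -0.02 over 15 extended members. With the replicate block 0 members were called as well, beside 2.52% of all genes.

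The effects of the single knockdowns were compared directly, in a test of the difference of their log2 fold changes. Of 29 members tested, 2 were called lower in siMYBL2 than in siFOXM1, beside 4.52% of 16538 genes, and 0 higher, beside 5.83% (10.3% in either direction). H2AC11 stood at 3.77, 3.03, 3.83 and 4.52 CPM in siControl, at 3.21, 2.30, 2.12 and 2.43 CPM in siMYBL2 and at 4.67, 4.26, 3.64 and 4.41 CPM in siFOXM1. The siMYBL2 libraries lay below all siFOXM1 libraries, and the difference was -0.76 ± 0.16 (adjusted p = 0.00491, edgeR). H1-4 stood at 1.08, 1.21, 1.37 and 0.791 CPM in siFOXM1, and its difference was -0.83 ± 0.26 (adjusted p = 0.0336, edgeR), with the first siMYBL2 library above the lowest siFOXM1 library. H1-3 was not called in this test, so its effects are not shown to differ between the knockdowns. With the replicate block 5 members were called, H2AC11, H1-4 and H2BC13 lower and H2BC4 and H2BC26 higher in siMYBL2, beside 5.94% of all genes lower and 8.66% higher (14.6% in either direction).

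With both factors knocked down, 1 H2B gene was called higher in the fit without the replicate block, and more members were called with it, as given below. Of 22 members tested, 0 were called lower, beside 3.64% of 15812 genes, and 1 was called higher, beside 2.8%. DESeq2 also called 0 lower and 1 higher. The members' median was 0.11 (-0.06 after a GC and length correction with the canonical transcript) against 0.02 over all genes, and their values ran from -1.13 to 1.95.

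H2BC21, an H2B gene with an extended end on chromosome 1, stood at 8.12, 7.46 and 7.56 CPM in siControl_Both and at 15.2, 14.0 and 14.4 CPM in siBoth. The groups were far apart with little spread in either, and H2BC21 rose by 0.91 ± 0.12 (adjusted p = 0.00332, edgeR), a call that held in all 6 fits with 1 library left out. In the single knockdowns it had 0.38 in siMYBL2 and 0.03 in siFOXM1 on the log2 scale, neither of which passed.

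H1-4 had the highest fold change of the members, but from few counts. It had 2, 15 and 3 counts in siControl_Both and 23, 37 and 20 counts in siBoth. The treated libraries lay above the controls, of which the second stood apart, and the log2 fold change was 1.95 ± 0.59 (adjusted p = 0.0655, edgeR), which passed without siControl_Both replicate 2 (3.21, adjusted p = 0.0279). H1-4 passed the filter of this fit through siBoth, as siControl_Both replicate 2 was the only control library with at least 10 counts. Without that library it had to be higher in siBoth. H1-4 was thus negative in siMYBL2 and positive in siBoth, and the difference between these effects was 3.00 ± 0.63 (adjusted p = 0.122, edgeR), not called. None of the 29 members tested was called in that difference, beside 0.159% of 17012 genes.

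H2BC18 and H2BC4, both H2B genes with extended ends, and H2AC20 did not pass in siBoth without the replicate block. H2BC4 stood at 1.61, 2.09 and 2.26 CPM in siControl_Both and at 2.43, 5.28 and 3.02 CPM in siBoth, with a log2 fold change of 0.84 ± 0.32 (adjusted p = 0.118, edgeR). Its 3 treated libraries lay above the controls, and the size of the change was that seen in siMYBL2. H2BC18 had 0.95 ± 0.30 (adjusted p = 0.0755) and H2AC20 -1.13 ± 0.43 (adjusted p = 0.121), followed by H3C10 with -0.39 ± 0.22 (adjusted p = 0.284) and H4C9 with -0.30 ± 0.20 (adjusted p = 0.364), all from edgeR. With the replicate block, 4 members were called higher (H2BC21, H1-4 with adjusted p = 0.000891, H2BC4 with 0.0076 and H2BC18 with 0.0201) and 1 lower (H2AC20, 0.0447), beside 6.62% of all genes higher and 5.08% lower (11.7% in either direction, 6.44% without the block). H2AC20 had 17, 15 and 14 counts in siControl_Both and 10, 9 and 3 in siBoth. It passed the filter of this fit through siControl_Both alone, so it had to be lower in siBoth. H1-4 passed the filter through siBoth, as given above, so its call has the same limit. The members' median was -0.14 over 8 short and 0.38 over 14 extended members. For the short members it was -0.06 with upper-quartile scaling and -0.29 after the GC and length correction, and with the canonical transcript the medians were -0.30 and 0.22.

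With FDI6, 1 H3 gene was called lower, in a call that depended on the correction used. That is 4.55% of the members tested, under the share of all genes. Of 22 members tested, 1 was called lower, beside 5.77% of 15240 genes, and 0 were called higher, beside 8% of them. DESeq2 also called 1 lower and 0 higher. The members' median was -0.23 against -0.01 over all genes, and 17 values were negative and 5 positive, from -0.84 to 0.20. The shift was not seen in each setting. After a correction for the trend of fold change with GC content and exon length the median was -0.04, and with the canonical transcript's GC and length it was 0.09.

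H3C10 stood at 5.85, 4.97 and 5.60 CPM in control_FDI6 and at 3.88, 3.38 and 2.45 CPM with FDI6. The groups did not overlap, and H3C10 fell by 0.76 ± 0.19 (adjusted p = 0.00917, edgeR), called in all 6 fits that left out a library. With the replicate block the count was the same, 1 lower beside 5.51% of all genes and 0 higher beside 7.7%, although here the numbers did not pair the libraries. After the GC and length correction it was -0.61 (adjusted p = 0.0211), but with the canonical transcript -0.30 (adjusted p = 0.321), so the call depends on that choice.

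H2BC12 and H1-2 had smaller changes that stayed under the 1.5-fold threshold. H2BC12 stood at 29.4, 30.4 and 28.7 CPM in control_FDI6 and at 19.8, 23.8 and 22.9 CPM with FDI6. All treated libraries lay below the controls, with a log2 fold change of -0.42 ± 0.10 (adjusted p = 0.00528, fold 1.33). H1-2 stood at 15.4, 14.0 and 11.8 CPM in the controls and at 9.70, 8.50 and 11.2 CPM with FDI6. The groups again did not overlap, and the change was -0.49 ± 0.14 (adjusted p = 0.0171, fold 1.4). After the GC and length correction these values were -0.05 (adjusted p = 0.656) for H2BC12 and -0.16 (adjusted p = 0.347) for H1-2, all from edgeR.

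H2BC15, an H2B gene, had -0.72 ± 0.27 (adjusted p = 0.0532), and the members with the lowest p among positive values were H4C16, an H4 gene, at 0.20 ± 0.33 (adjusted p = 0.662), H2BC21 at 0.09 ± 0.18 (adjusted p = 0.741) and H2BC4 at 0.13 ± 0.30 (adjusted p = 0.765), none of which passed. The summed level of the short members was 47.9 ± 1.08 CPM with FDI6 (47.1 to 49.1) and 61.8 ± 3.81 CPM in its control (58.2 to 65.8), without overlap. The median was -0.44 over 7 short and -0.03 over 15 extended members, and -0.05 and -0.04 after the GC and length correction. With the canonical transcript they were -0.03 and 0.33, so the extended members' median changed sign, with 11 of 15 values positive. In the test of FDI6 against siFOXM1, 0 of 30 members were called, beside 4.18% of 17026 genes lower and 7.32% higher (11.5% in either direction).

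**Figure D3:**
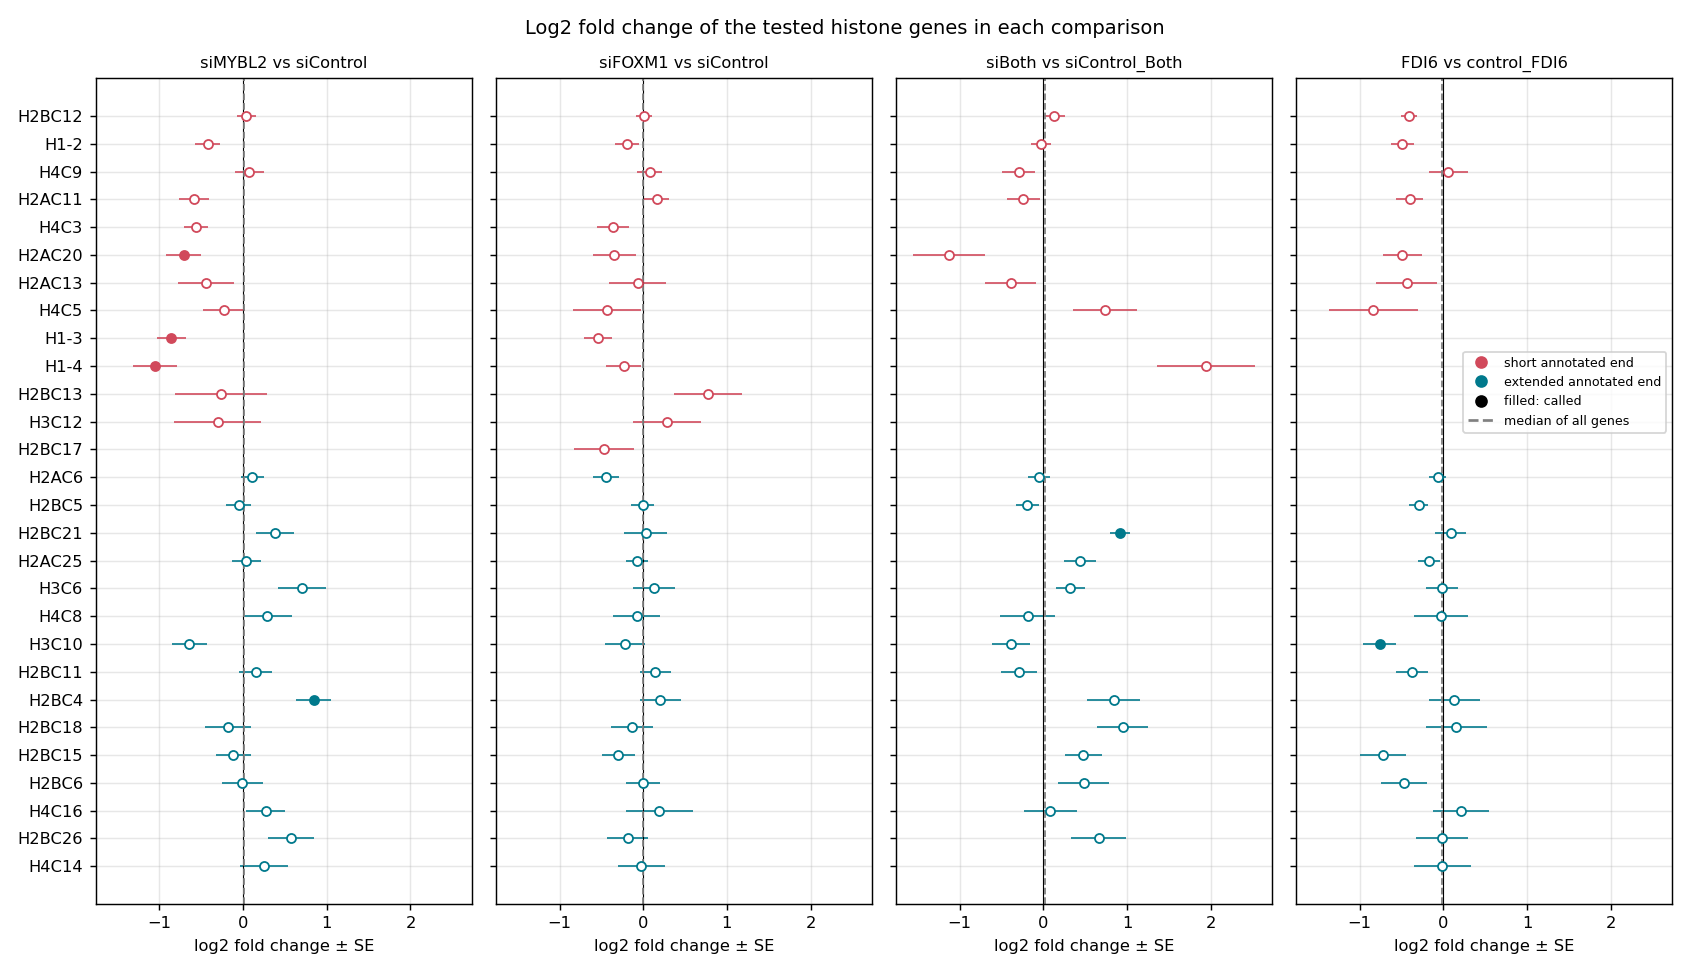
Log2 fold change with its SE for the 28 members tested in at least 1 of the 4 treatments, a panel per treatment, with short ends in red and extended ends in teal, called members filled and the median of all genes dashed. In siMYBL2 the red points lie mostly left of 0 and the teal points mostly right of it, while in siFOXM1 no point is filled.

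The control groups of the 3 experiments also differed from one another. Between siControl and siControl_Both, 7 members were called higher and 1 lower in siControl of 27 tested, beside 7.67% of 15963 genes higher and 6.98% lower (14.7% in either direction). Between siControl and control_FDI6, 4 were called higher and 5 lower of 28, beside 15.4% of 16125 genes higher and 12.4% lower (27.9% in either direction). These counts include H4C3 and H1-3, which the count rule kept through the single-knockdown libraries alone and which had to be higher there. Without them, 5 of 25 were called higher and 1 lower against siControl_Both, and 2 of 26 higher and 5 lower against control_FDI6. The 2 higher against control_FDI6 include H1-4, which passed the filter of that fit through siControl alone. Of 5 epithelial markers, 3 were higher in siControl than in siControl_Both (EPCAM, 2.28; KRT19, 1.70; KRT8, 0.88), and against control_FDI6 KRT19 was higher (2.19) and KRT18 lower (-0.73). PECAM1 had 149 counts over the 4 siControl libraries and 3 over the 3 control_FDI6 libraries. Their part in the histone values was not tested. Experiment and control group cannot be told apart in these values.

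H4C3, H1-3 and H1-4 stood out among them, all with short ends. H4C3 had 105, 121, 171 and 107 counts in siControl, 1, 1 and 2 in siControl_Both and 5, 3 and 5 in control_FDI6. H1-3 had 51, 49, 53 and 49 counts in siControl, 5, 8 and 5 in siControl_Both and 4, 8 and 0 in control_FDI6. The single-knockdown libraries stood well above both other experiments for both genes. Since H4C3, H1-3 and H4C1, a further H4 gene, reached 10 counts only in the single-knockdown experiment, the count rule kept them through it and they had to differ. H1-4 also reached 10 counts in the double-knockdown experiment. It was 2.20 ± 0.49 higher in siControl than in siControl_Both and 2.85 ± 0.36 higher than in control_FDI6 on the log2 scale. It had 31, 38, 31 and 33 counts in siControl, 2, 15 and 3 in siControl_Both and 5, 3 and 2 in control_FDI6. In the fit against control_FDI6 it passed the filter through siControl alone, so it had to be higher in siControl. In the fit against siControl_Both it also passed through siControl, since siControl_Both reached 10 counts in replicate 2 only.

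H2BC18 was also higher in siControl, by 1.47 against siControl_Both and 1.89 ± 0.32 against control_FDI6. H4C9 was lower in siControl than in siControl_Both (-0.69 ± 0.17, adjusted p = 0.0159, edgeR; not called without siControl replicate 3, where it was -0.57, or without siControl_Both replicate 1 or 3, with adjusted p = 0.0508 and 0.0638), and H2AC20 was higher than in siControl_Both (1.26) but lower than in control_FDI6 (-0.73, or -0.62 with adjusted p = 0.075 without control_FDI6 replicate 1). H2AC6 and H1-2, 2 of the most abundant members, did not differ to this extent between controls, at 0.02 and -0.10 against siControl_Both and 0.03 and 0.08 against control_FDI6. H2BC12, the most abundant, had -0.13 against siControl_Both and -0.28 against control_FDI6 (adjusted p = 0.0416, edgeR, fold 1.22). H2BC5 had 0.41 against siControl_Both (adjusted p = 0.0618, edgeR) and -0.06 against control_FDI6. Among RNAs that lack a poly(A) tail, RN7SL2, part of the signal recognition particle, averaged 81.0 CPM in siControl, 15.8 in siControl_Both and 106 in control_FDI6. Of 17 listed RNAs of this kind, RN7SL2 was the only 1 tested between these controls. The part of tail-less RNA carried through the capture was not tested.

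**Figure D4:**
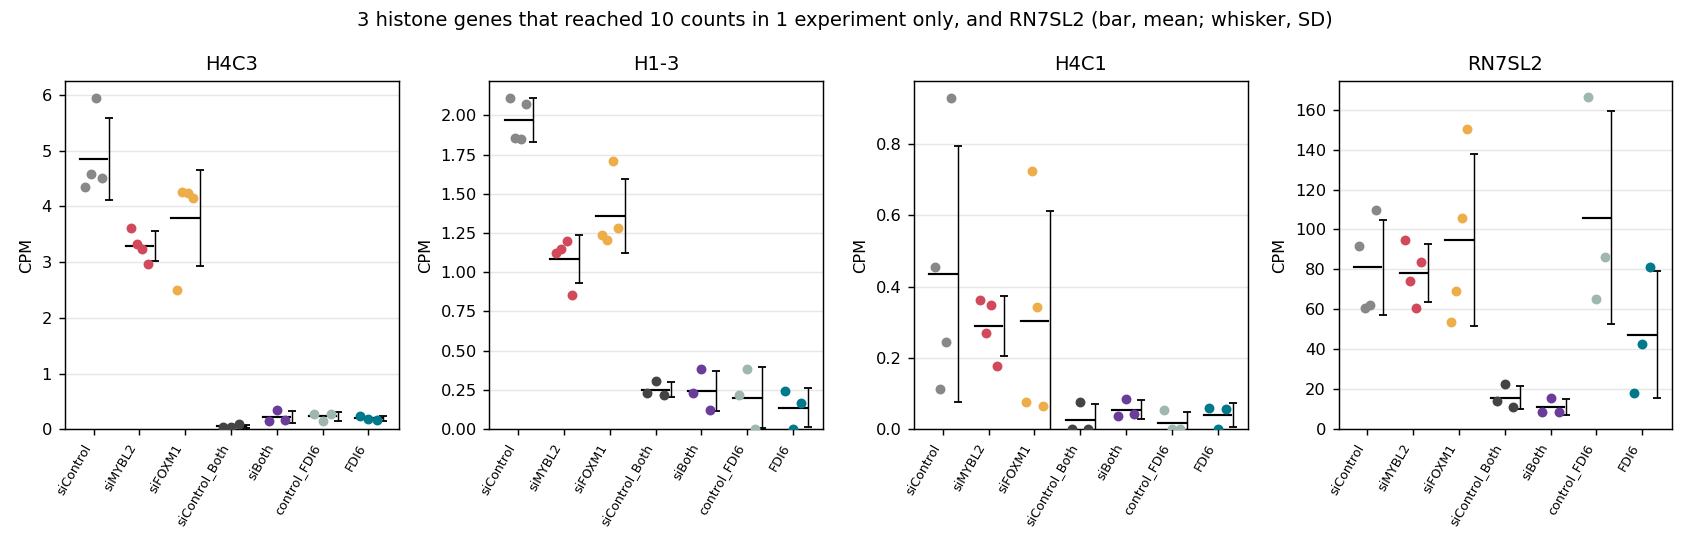
CPM of H4C3, H1-3, H4C1 and RN7SL2 in each library, by group, on linear axes from 0. H4C3 and H1-3 are higher in all 12 single-knockdown libraries than in any other library, and H4C1 is low throughout, whereas RN7SL2 is low only in the double-knockdown experiment and in some FDI6 libraries.

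Genes that act with the canonical histones were followed by lists, chosen with earlier results of these data known. Over all genes tested, 3.52% were called lower and 4.38% higher in siMYBL2, and 0.591% and 0.0755% in siFOXM1. In siBoth these shares were 3.64% and 2.8%, and with FDI6 5.77% and 8%. With FDI6, 1 gene called higher in a list of 12 or 15 is near the share of all genes. Of 10 replacement and variant histone genes, which are made outside replication or have specialised roles, 2 were called lower in siMYBL2 (CENPA, the centromeric H3 variant, -1.07; H2AX, the variant marked at DNA breaks, -0.94), 1 in siFOXM1 (CENPA, -0.75), 1 in siBoth (CENPA, -1.88) and 4 with FDI6 (CENPA, -0.60; H1-10, -0.61; H2AJ, -0.71; H2AX, -0.74). None was called higher in any of the 4 comparisons, and the list's medians were -0.25, -0.13, -0.15 and -0.32 in that order. CENPA was called lower in each of them.

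Of 15 genes for processing of histone mRNA, 1 was called lower in siMYBL2 (ZNF473, which acts with the U7 particle, -0.63), 0 in siFOXM1, 1 in siBoth (ZNF473, -0.74), and 1 was called higher with FDI6 (CASP8AP2, needed for histone transcription and processing, 0.64). SLBP itself, singled out after its values were seen, was not called, with -0.24 ± 0.10 in siMYBL2 (adjusted p = 0.136), -0.24 ± 0.09 in siFOXM1 (0.292), -0.19 ± 0.11 in siBoth (0.284) and -0.11 ± 0.07 with FDI6 (0.209), all from edgeR. Of 12 histone chaperone genes, 2 were called lower in siMYBL2 (CHAF1B, a subunit of the replication-coupled chaperone CAF-1, -0.60; HJURP, which loads CENPA, -0.75), 0 in siFOXM1, 1 in siBoth (HJURP, -0.72), and 1 was called higher with FDI6 (ATRX, which loads H3.3 with DAXX, 0.70).

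Of 16 genes of DNA replication and S phase, 5 were called lower in siMYBL2 (CCNA2, a cyclin, GINS2 and MCM2, MCM5 and MCM7, parts of the replicative helicase, from -0.62 to -0.74), 1 in siFOXM1 (CCNA2, -0.61), 2 in siBoth (CCNA2, -1.46; RRM2, a subunit of ribonucleotide reductase, -1.16) and 0 with FDI6. None was called higher, and the medians were -0.44, -0.13, -0.35 and -0.20. The medians of the S-phase list and of the short histone members were negative in all 4 comparisons. So were those of the variant list above and of the chaperone list (-0.15, -0.04, -0.12 and -0.24). With FDI6 the short members' median was -0.05 after the GC and length correction. A link between these values was not tested, and the share of cells in S phase was not measured here. With FDI6, 3 of 5 epithelial markers fell as well (CDH1, -1.49; KRT18, -0.65; KRT8, -0.81), while EPCAM had -0.47 (adjusted p = 0.0106) and KRT19 0.35 (adjusted p = 0.00549), both under 1.5-fold. COL1A1 fell by 1.28 on the log2 scale. RN7SL2 was also lower with FDI6 (-1.16, adjusted p = 0.049, edgeR), with control_FDI6 at 166, 65.1 and 86.2 CPM and FDI6 at 17.9, 42.9 and 81.0 CPM, which overlap. The part of these genes in the histone values was not tested.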

How the data were processed

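RNA-seq counts of 24 A549 libraries were used. Per the labels and the study's methods, the authors captured poly(A) RNA, trimmed reads with Trim Galore, aligned them with STAR to hg38 and counted pairs per gene with HTSeq on GENCODE V29, and they deposited these raw counts; versions and the strand setting are not given in the sources used here. HTSeq leaves out pairs that match several places or overlap several genes, which affects near-identical histone genes. At least 3 biological replicates were made per group; p-values measure the spread between these libraries.

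Symbols, exons and GC content came from GENCODE V44, which matched 58207 gene IDs and left 514 unmatched. Only the groups of a comparison entered its fit, made in edgeR 4.0.16 (R 4.3.3; TMM, filterByExpr, quasi-likelihood F test, no block), with p-values adjusted by Benjamini-Hochberg over all genes tested. Called genes had an adjusted p under 0.05 together with a fold change above 1.5. SE is the absolute log2 fold change divided by the square root of F. Differences of effects and comparisons of control groups were fitted the same way. CPM used 1 TMM scaling over all libraries. The fits were tested on simulated data. No libraries were duplicates (chi-square per gene 3.573 to 62.81 within groups).

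Same-numbered libraries were compared by the correlation of their deviations from the group mean. These were 0.570 to 0.874 for siMYBL2 and siControl, 0.537 to 0.905 for siFOXM1 and siControl and 0.552 to 0.687 for siBoth and siControl_Both, so the numbers pair those samples, and the fit with the replicate block is given where it changes a call. Alternatives were DESeq2 1.42.0, other scalings, other filters, the replicate block, a GC and exon length correction and leaving out each library; the canonical-transcript correction and the comparisons between controls were added after seeing the data.

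The members and lists were chosen with earlier results of these data known. One gene of the replacement and variant list is not reported here. Named members are the 6 highest per exon length, up to 5 called members in each direction and, where under 3 were called, those with the lowest p up to 3; others were named after their values were seen. Adjusted p-values without a named tool are from edgeR.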

Additional observations from a re-analysis of the deposited data

Results flagged for a closer look

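In groups of 4 libraries, 7 of 63 tested combinations of group and named member had a library standing apart by Dixon's criterion, where chance gives about 1 in 20. On the low side these were H1-2 in siFOXM1 replicate 3 (10.5 CPM), H2AC20 in siMYBL2 replicate 1 (0.763 CPM) and H4C3 in siFOXM1 replicate 1 (2.51 CPM). On the high side these were H1-4 in siMYBL2 replicate 1 (0.963 CPM), H1-3 in siFOXM1 replicate 3 (1.71 CPM), H2AC20 in siControl replicate 3 (2.02 CPM) and H4C3 in siControl replicate 3 (5.96 CPM).

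The effects of the single knockdowns differed for H2AC11 (siMYBL2 minus siFOXM1, -0.76 on the log2 scale) and H1-4 (-0.83), both by the test of the difference in edgeR, with adjusted p-values of 0.00491 and 0.0336.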

How the results depend on the processing

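Counts of called members moved with the processing as follows. In siMYBL2 the 3 lower calls became 5 with DESeq2, in the replicate block fit and in that fit with the GC correction, and the 1 higher call became 2 with the block, with or without that correction. In siBoth the 0 lower calls became 1 and the 1 higher call became 4 with the replicate block, with or without the GC correction, and the higher calls became 4 with no filter on low counts. With the block these calls include H2AC20 and H1-4, which passed the filter through the group where they were higher. With FDI6 the 1 lower call became 2 with upper-quartile scaling, with the GC and length correction and with that correction plus the block, and 0 with the canonical transcript, where H3C10 was -0.30 (adjusted p = 0.321). The 2 members whose effects differed between siMYBL2 and siFOXM1 became 5 with upper-quartile scaling and with the block (10.3%, 10.5% and 14.6% of all genes). Between siControl and control_FDI6 the 5 lower calls became 2 after the GC and length correction. H2AC20 in siMYBL2 missed the threshold with upper-quartile scaling (-0.66, adjusted p = 0.0539) and with no filter (-0.72, adjusted p = 0.107). The share of all genes called moved too. In siMYBL2 it was 3.52% lower, 3.79% with DESeq2 and 4.71% with the block, in siBoth 2.8% higher, 6.62% with the block and 2.47% with no filter, with FDI6 5.77% lower, 6.86% with upper-quartile scaling, 3.88% after the GC and length correction and 3.62% with the canonical transcript, and against control_FDI6 12.4% lower and 11.2% after that correction. The causes were not tested.

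With 1 library left out, lower calls ranged from 1 to 4 in siMYBL2 (1 without siMYBL2 replicate 2 or 3) and higher calls from 0 to 1 (0 without siMYBL2 replicate 1 or siControl replicate 2). In siFOXM1 they stayed at 0 in each direction. In siBoth lower calls stayed at 0 and higher calls ranged from 1 to 2. The added call was H1-4 without siControl_Both replicate 2, where it had to be higher. With FDI6 lower calls ranged from 1 to 2 and higher calls stayed at 0, with H1-2 also called without FDI6 replicate 3 or control_FDI6 replicate 3. Between siControl and siControl_Both lower calls ranged from 0 to 1 and higher calls from 7 to 9, and between siControl and control_FDI6 lower calls from 3 to 7 and higher calls from 4 to 7. The share of all genes called in the fits with 1 library left out is not given here. Values of uncalled members with FDI6 changed sign when a library was left out: H2BC21 ranged from -0.061 to 0.23, H2BC4 from -0.078 to 0.34 and H4C16 from -0.058 to 0.42.

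For FDI6 the same-numbered libraries had correlations from -0.286 to 0.159 and 1 of 3 pairs was closest to its own number, so the numbers do not pair them; with the replicate block 1 member was called lower and 0 higher, as without it. Members with under 10 counts in a library have values limited by counting error, and 4 members were tested in none of the 4 treatments.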
